A study of Homo sapiens with 6 samples.

Results

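Genes of the interferon response were compared between HCC827_Er and HCC827 cells in 63 protein-coding genes of 6641 listed genes. The members were taken by their names from the gene table: every protein-coding symbol beginning with IFI, OAS, ISG, PARP, SAMD9, HERC, IRF or APOL, with TRIM, GBP or STAT and a digit, and MX1, MX2, BST2, XAF1, DDX60, RSAD2, USP18, CMPK2 and EPSTI1, without TRIM29. Membership follows from the name alone, and the name families also hold genes that do not respond to interferon. The families and single names were themselves chosen with earlier results of these data known. The table held 10 IFI, 4 OAS, 2 ISG, 4 PARP, 20 TRIM, 2 SAMD9, 3 HERC, 1 GBP, 4 IRF, 3 STAT and 3 APOL genes and 7 of the singly named genes. MX1 and RSAD2 were not found by symbol in the table used here.

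Total RNA of 2 human lung cancer cell lines was sequenced in 3 libraries each. HCC827_Er is labelled as a cell line, and by the title and design it is the cell resistant to EGFR inhibitors, while the labels used here do not say how it was derived, whether it is a clone or whether drug was present. HCC827, the parental line, is an established lung adenocarcinoma line with an activating mutation of the receptor EGFR, and the study asks how histone Kcr, the crotonylation of lysine, acts in that resistance. No treatment is labelled for either line, and separate cultures are not mentioned for the 3 libraries of each line, so each p-value reflects library spread that may be technical. The labelled epithelial origin was seen in its markers: EPCAM, KRT8, KRT19, CDH1, CLDN4, CLDN7, ELF3 and ESRP1 summed to between 3402 and 3556 FPKM in HCC827_Er libraries and between 2426 and 2513 FPKM in HCC827 libraries. KRT8, the largest part of the HCC827 sum, went the other way, at 1025 FPKM in HCC827_Er and 1744 FPKM in HCC827.

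Interferons are secreted proteins that warn cells of infection. Type I and type III interferons act through receptors with the kinases JAK1 and TYK2, which lead STAT proteins and IRF9 to form a complex that binds the interferon-stimulated response element in promoters, while interferon gamma acts through a STAT dimer on the gamma-activated site. The induced genes encode sensors of foreign RNA, enzymes that degrade or trap it, membrane proteins that hinder viruses, and the feedback that ends the signal. Many tumour lines express part of this set without added interferon.

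Of the 56 members that could be tested, 26 were called higher in HCC827_Er, 3 lower and 27 neither, where 24.7% of all tested genes were called higher and 19.7% lower. IFI27, a small membrane protein, rose to 57.8 ± 9.59 FPKM in HCC827_Er, against 1.84 ± 0.386 FPKM in HCC827 (SD, n = 3 each). Rises above 4-fold on the log2(FPKM + 1) scale were also seen for BST2, IFITM1, XAF1, DDX60 and MX2, of antiviral or growth-restraining function, and for TRIM2 and TRIM55, which are best known for other roles. Other well-known members were higher by less than 2-fold, among them ISG15, OAS3, IFIH1 and PARP9. The members called lower were IFI27L2, TRIM8 and TRIM47.

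Levels are in FPKM, fragment counts divided by transcript length and by all mapped fragments, which allows levels of different genes to be set side by side. A gene was tested if it reached 1 FPKM in at least 3 of the 6 libraries, and called if limma's Benjamini-Hochberg adjusted p was under 0.05 and the log2(FPKM + 1) difference, HCC827_Er minus HCC827, was at least 1 in size, a 2-fold change on that scale, the scale of every difference and fold given here. The calls made up 46.4% (higher) and 5.4% (lower) of the tested members, beside 24.7% and 19.7% of all 5276 tested genes; among tested protein-coding genes the shares were 25.4% and 18.6%. The minimum of 1 FPKM admits some genes through HCC827_Er alone, so the members were also read without it. In the fit with no minimum 27 of all 63 members were called higher and 3 lower (42.9% and 4.8%), against 20.3% and 16.2% of all 6641 genes. The median log2 difference in that fit was 0.93 over the 63 members and 0.30 over all genes. Of 45 members that reached 1 FPKM in all 6 libraries, 21 were called higher and 3 lower (46.7% and 6.67%), against 19.5% and 16.8% of the 3871 genes that did so.

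The 3 libraries of HCC827_Er all lay above the 3 of HCC827 for 48 of the 63 members (76.2%) and all below for 12, and the lines overlapped for PARP11, HERC6 and TRIM9. Such separation was the rule in this table, where 50.7% of all listed genes were entirely higher and 45.4% entirely lower, so separation alone does not set a member apart. An adjusted p under 0.05 was as widespread: 45 members passed it upward and 10 downward, and 50.6% and 47.7% of all tested genes did. How the listed genes were selected is not stated in the sources, so every share holds within this list alone.

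The 63 members together summed to between 1635 and 1671 FPKM in HCC827_Er libraries and between 759 and 791 FPKM in HCC827 libraries. They held between 0.86% and 0.901% of the listed FPKM in HCC827_Er and between 0.339% and 0.353% in HCC827. In both lines APOL1 stood highest, at 431 FPKM in HCC827_Er and 147 FPKM in HCC827. IFITM1, BST2 and ISG15 followed in HCC827_Er at 154, 151 and 151 FPKM, too close to be ranked beyond their spread, while STAT3 and ISG15 followed in HCC827 at 109.7 and 95.5 FPKM. At the low end, 16 members averaged under 1 FPKM in HCC827 and 6 did so in HCC827_Er. Of the 63 members 10 reached 1 FPKM in every HCC827_Er library but not in every HCC827 library, as did 825 of all 6641 listed genes. The spread between libraries of a line was small, with a median coefficient of variation of 9.69% in HCC827_Er and 8.93% in HCC827 over the tested members.

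**Figure D1:**
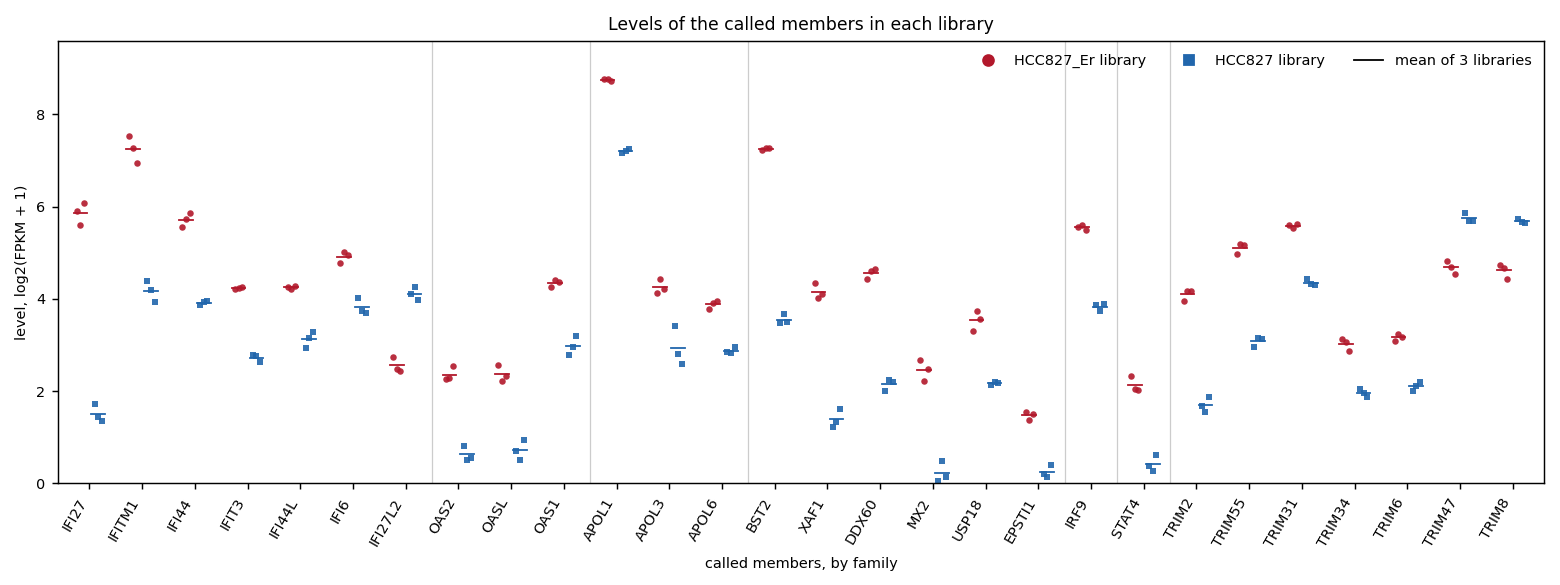
Level of the called members reported here in each library, as log2(FPKM + 1) on the vertical axis, grouped by family along the horizontal axis; circles are the 3 HCC827_Er libraries, squares the 3 HCC827 libraries and short lines their means. In all members plotted the libraries of the lines are apart; IFI27, BST2 and IFITM1 show the widest gaps, and IFI27L2, TRIM47 and TRIM8 are the ones with HCC827 on top.

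Promoters are shown for the 4 members with the largest differences among those whose promoter holds a match to the interferon-stimulated response element, the sequence through which type I interferon acts. XAF1 also ranks among the largest differences, and neither of its 2 windows holds a match. The windows are from RefSeq on GRCh38.p14, run from 250 bases before to 50 bases after a transcription start, and are written 5′ to 3′ on the gene's strand. Capitals mark the core of the element, a pair of GAAA separated by any 2 bases, or its reverse complement, a pair of TTTC separated by any 2 bases. The promoter of IFI27L2, the neighbour of IFI27 that was called lower, is given for comparison and holds no such match.
IFI27 (chr14:94110486-94110785, plus strand): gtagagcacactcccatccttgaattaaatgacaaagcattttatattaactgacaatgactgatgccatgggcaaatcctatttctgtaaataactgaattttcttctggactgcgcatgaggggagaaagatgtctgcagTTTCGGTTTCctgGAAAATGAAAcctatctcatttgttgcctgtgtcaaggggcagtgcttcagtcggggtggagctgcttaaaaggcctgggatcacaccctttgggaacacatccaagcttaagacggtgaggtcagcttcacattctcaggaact
BST2 (chr19:17405581-17405880, minus strand): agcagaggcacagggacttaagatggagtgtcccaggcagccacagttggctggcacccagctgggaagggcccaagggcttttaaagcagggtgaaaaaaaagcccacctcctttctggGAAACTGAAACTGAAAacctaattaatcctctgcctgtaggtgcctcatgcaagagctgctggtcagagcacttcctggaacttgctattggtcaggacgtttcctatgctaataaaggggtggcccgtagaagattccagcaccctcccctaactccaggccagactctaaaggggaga
IFITM1 (chr11:313790-314089, plus strand): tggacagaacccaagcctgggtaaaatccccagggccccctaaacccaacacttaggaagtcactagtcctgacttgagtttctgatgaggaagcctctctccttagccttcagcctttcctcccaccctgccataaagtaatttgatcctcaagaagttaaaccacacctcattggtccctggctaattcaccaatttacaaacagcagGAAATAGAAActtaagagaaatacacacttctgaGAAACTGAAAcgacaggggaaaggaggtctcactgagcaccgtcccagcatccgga
DDX60 (chr4:168318703-168319002, minus strand): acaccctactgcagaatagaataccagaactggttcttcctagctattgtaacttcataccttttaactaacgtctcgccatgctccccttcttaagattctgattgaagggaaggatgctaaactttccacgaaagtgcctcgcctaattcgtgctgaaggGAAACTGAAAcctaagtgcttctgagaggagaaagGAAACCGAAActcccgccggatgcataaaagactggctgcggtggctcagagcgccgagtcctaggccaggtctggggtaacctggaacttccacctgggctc
IFI27L2 (chr14:94129555-94129854, minus strand): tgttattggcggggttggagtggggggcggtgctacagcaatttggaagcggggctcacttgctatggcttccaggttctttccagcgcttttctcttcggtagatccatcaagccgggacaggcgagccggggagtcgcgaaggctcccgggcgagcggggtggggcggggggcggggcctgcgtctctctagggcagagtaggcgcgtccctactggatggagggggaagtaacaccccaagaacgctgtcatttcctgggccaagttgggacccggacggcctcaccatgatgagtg

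RefSeq promoters were found by symbol for 47 of the 63 members, in 71 windows of 300 bases. A match to this core on either strand lay in 23 of the 71 windows (32.4%) and in 3.6% of all 35116 windows of that length. By gene, 11 of 17 members called higher with a promoter held a match (64.7%), as did 9 of 22 that were tested and not called (40.9%) and neither of the 2 called lower with a promoter, against 4.4% of all 27305 genes. The match was found in 17 of 33 members outside the TRIM family and in 3 of 14 TRIM members. Among members with a match but a rise under 2-fold on the log2(FPKM + 1) scale were ISG15, ISG20, OAS3, IFIH1, IFIT1, SAMD9, PARP9 and HERC5. Their ratio of mean FPKM was 2.97 for IFIT1, 2.18 for SAMD9, 2.01 for HERC5 and at most 2.0 for the others. Called and uncalled members thus both held a match. TRIM69, at a lower level in HCC827_Er, also held a match.

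The gamma-activated site TTCNNNGAA, which reads the same on both strands, was found in 10 of the 47 members (21.3%) and in 9.4% of all genes. It lay in 8 of the 17 members called higher, namely BST2, DDX60, EPSTI1, IFI27, IFITM1, IRF9, OAS1 and TRIM2. Of the 22 members tested and not called, 1 held it (4.5%). By window the shares were 35.7% of 28 windows of members called higher and 3.4% of 29 windows of members not called. Of its 14 matches in members' windows, where a site inside overlapping windows is counted in each, 5 overlapped a response element match, in BST2, EPSTI1, IFI27 and IFITM1. A match describes the letters in the window and not a bound site.

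**Figure D2:**
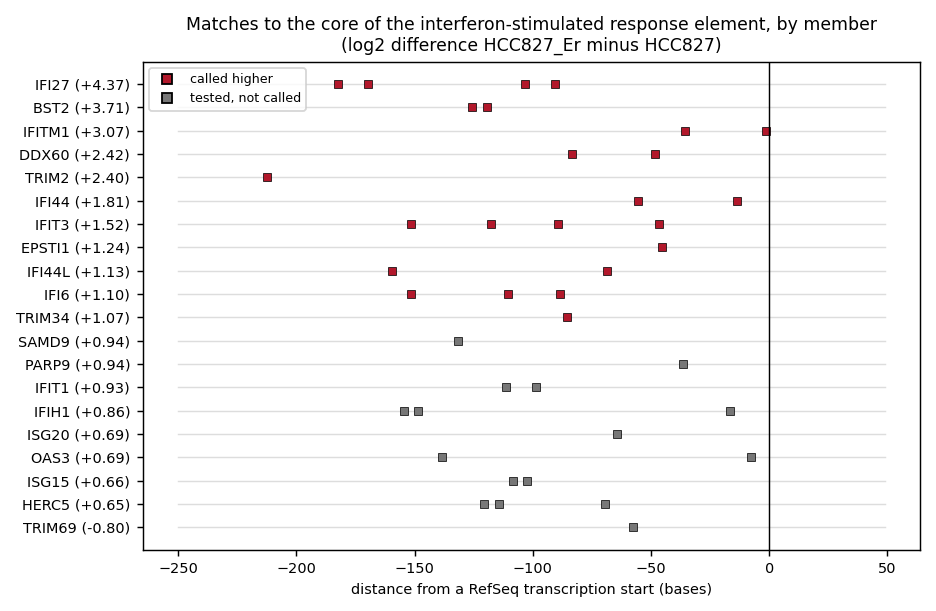
Matches to the response element core in the RefSeq promoter windows of the 20 members that have any, by distance from the transcription start in bases; members are ordered by their log2 difference, given in brackets, and a member with several starts shows the matches of each window. Matches lie upstream of the start in every member shown except for IFITM1, where the second one reaches across it, and members called higher and members not called both have them.

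Signalling components moved in both directions. IRF9, the subunit that gives the interferon-induced complex its DNA contact, stood at 46.4, 47.3 and 44.0 FPKM in the HCC827_Er libraries, against 13.5, 12.3 and 13.9 FPKM in the HCC827 libraries, and rose by 1.72 (SE 0.07, adjusted p = 8.04e-08). Another gene on the same strand overlaps 48.4% of its exonic bases, so the reads behind this rise are uncertain in part. JAK1, the kinase used by all interferon receptors, went the other way, with 98.1, 106 and 107 FPKM in HCC827_Er and 209.9, 209 and 220.0 FPKM in HCC827 (log2 difference -1.03, SE 0.05, adjusted p = 2.37e-07). Its libraries did not overlap, but the call was lost with sum rescaling, with quantile normalization and without HCC827_Er library 1. IFNLR1, the specific chain of the type III interferon receptor, averaged 2.47 FPKM in HCC827_Er and 1.09 FPKM in HCC827 and was not called. These were the only listed genes of 9 names for receptors and kinases, and none of 10 names for interferons was in the table used here.

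Of the STAT family, STAT4, which acts downstream of interleukin-12 in lymphocytes, had 4.05, 3.13 and 3.09 FPKM in HCC827_Er, against 0.30, 0.20 and 0.52 FPKM in HCC827 (log2 difference 1.72, SE 0.14, adjusted p = 3.48e-06). STAT3, the factor activated by interleukin-6, averaged 63.0 ± 1.76 FPKM in HCC827_Er and 109.7 ± 8.53 FPKM in HCC827, and STAT5A averaged 2.92 FPKM in HCC827_Er and 5.20 FPKM in HCC827; all libraries of both were lower in HCC827_Er, by less than 2-fold. Under median-ratio rescaling STAT3 was called lower, and the STAT4 call was lost with a pseudocount of 5. STAT4 stayed under 1 FPKM in every HCC827 library and was tested only through HCC827_Er, so its call could only run upward. The negative regulators SOCS3 and CISH, which are induced by STAT signalling and restrain it, stood at 11.1 and 4.20 FPKM in HCC827_Er, against 20.7 and 1.96 FPKM in HCC827. None of 7 tested negative regulators was called in either direction, beside 24.7% of all tested genes called higher and 19.7% called lower.

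Of the nucleic acid sensors and adaptors tested, AIM2 alone passed 2-fold; IFIH1, RIGI and STING1 were higher by less and TLR3 was lower by less. IFIH1, which encodes the RNA sensor MDA5, had 8.57, 8.67 and 9.72 FPKM in HCC827_Er, against 4.74, 4.30 and 4.44 FPKM in HCC827, a log2 difference of 0.86 (SE 0.10) that was not called. RIGI, a related RNA sensor, averaged 8.46 FPKM in HCC827_Er and 4.84 FPKM in HCC827. STING1, the adaptor of DNA sensing, averaged 35.9 FPKM in HCC827_Er and 20.4 FPKM in HCC827. AIM2, an inflammasome sensor of DNA, had 6.94, 8.41 and 8.33 FPKM in HCC827_Er and was listed at 0.14, 0 and 0.04 FPKM in HCC827 (log2 difference 3.07, SE 0.12, adjusted p = 4.54e-08). TLR3, an endosomal RNA receptor, averaged 1.91 FPKM in HCC827_Er and 3.35 FPKM in HCC827 and was not called. Of 5 tested sensors and adaptors 1 was called higher and none lower, beside 24.7% and 19.7% of all tested genes. AIM2 stayed under 1 FPKM in every HCC827 library and was tested only through HCC827_Er, so its call could only run upward.

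The oligoadenylate synthetases, which make the messenger that activates RNase L, were all higher in HCC827_Er. Of the 4, 3 were called higher, beside 24.7% of all tested genes, and with a pseudocount of 5 OAS1 alone was called. OAS2 and OASL stayed under 1 FPKM in every HCC827 library. Both were tested only through HCC827_Er, so their calls could only run upward. OAS1 had 18.1, 20.3 and 19.5 FPKM in HCC827_Er, against 5.84, 6.80 and 8.09 FPKM in HCC827, and rose by 1.37 (SE 0.12). OAS2 had 3.76, 3.87 and 4.80 FPKM in HCC827_Er, against 0.75, 0.42 and 0.47 FPKM in HCC827, and rose by 1.73 (SE 0.13). OASL, a relative without the synthetase activity, had 4.94, 3.68 and 3.98 FPKM in HCC827_Er, against 0.63, 0.41 and 0.91 FPKM in HCC827, and rose by 1.66 (SE 0.15). OAS3 averaged 21.6 ± 0.579 FPKM in HCC827_Er and 13.1 ± 1.11 FPKM in HCC827 and was not called (0.69, SE 0.08). OAS1, OAS3 and OAS2 lie side by side on chromosome 12 with gaps of 5.1 kb (GENCODE 29, GRCh38), so that the neighbour in the middle differed least. OAS3 was also the highest of the 4 in HCC827, and OAS2 and OASL, the lowest there, had the larger log2 differences.

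The IFIT genes encode proteins that bind foreign RNA and lie together on chromosome 10. IFIT3 rose, with 17.6, 18.0 and 18.2 FPKM in HCC827_Er and 5.88, 5.79 and 5.17 FPKM in HCC827 (log2 difference 1.52, SE 0.09, adjusted p = 4.83e-07). IFIT2 and IFIT1 averaged 7.07 and 2.58 FPKM in HCC827_Er, against 3.06 and 0.870 FPKM in HCC827, and their log2 differences of 0.98 and 0.93 lay just under the 2-fold minimum. IFI44 and IFI44L, related interferon-induced genes 3.7 kb apart on chromosome 1, both rose. IFI44 had 46.2, 52.5 and 57.1 FPKM in HCC827_Er, against 13.5, 14.3 and 14.4 FPKM in HCC827 (1.81, SE 0.09). IFI44L had 18.2, 17.5 and 18.3 FPKM in HCC827_Er, against 6.61, 7.83 and 8.74 FPKM in HCC827 (1.13, SE 0.11; not called with median-ratio rescaling or a pseudocount of 5). DDX60, a helicase that aids RNA sensing, had 20.6, 23.5 and 24.1 FPKM in HCC827_Er, against 3.02, 3.69 and 3.61 FPKM in HCC827 (2.42, SE 0.11).

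Membrane proteins held the largest rises. IFI27 (chromosome 14, 94104836 to 94116698, plus strand) had 58.7, 47.8 and 66.9 FPKM in HCC827_Er, against 2.28, 1.70 and 1.55 FPKM in HCC827 (log2 difference 4.37, SE 0.14, adjusted p = 1.80e-08). Its relative IFI27L2 lies 11.1 kb away on the opposite strand and fell, with 5.72, 4.56 and 4.44 FPKM in HCC827_Er and 16.2, 18.1 and 14.7 FPKM in HCC827 (-1.55, SE 0.12). The pair thus moved in opposite directions, with no overlap of the lines for either gene. IFI6, another relative of IFI27 that protects cells from death, averaged 29.2 ± 2.46 FPKM in HCC827_Er and 13.2 ± 1.75 FPKM in HCC827 and was called higher (1.10, SE 0.11; not with median-ratio rescaling or a pseudocount of 5).

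BST2, known as tetherin because it holds budding viruses at the cell surface (chromosome 19, 17402939 to 17405648, minus strand), had 148, 153 and 153 FPKM in HCC827_Er, against 10.04, 11.7 and 10.3 FPKM in HCC827 (log2 difference 3.71, SE 0.07, adjusted p = 1.27e-09). Its coefficient of variation was 1.85% in HCC827_Er and 8.16% in HCC827, below those of IFI27 and IFITM1. IFITM1, which hinders the entry of viruses at the plasma membrane (chromosome 11, 313506 to 315272, plus strand), had 184, 154 and 123 FPKM in HCC827_Er, against 20.0, 17.4 and 14.4 FPKM in HCC827 (3.07, SE 0.16). Its HCC827_Er libraries ranged widely, and the lowest of them still stood far above all HCC827 libraries. In GENCODE 29 transcripts of IFITM2 overlap 32.5% of the exonic bases of IFITM1 on the same strand, so part of the IFITM1 reads cannot be assigned with certainty.

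The ISG15 system attaches ISG15, a small protein related to ubiquitin, to other proteins. ISG15 itself was abundant in both lines, at 143, 161 and 149 FPKM in HCC827_Er and 90.7, 97.8 and 98.0 FPKM in HCC827, and its log2 difference of 0.66 (SE 0.06) was not called. UBA7, the activating enzyme of ISG15, rose, with 16.3, 13.4 and 13.1 FPKM in HCC827_Er and 5.42, 5.80 and 4.26 FPKM in HCC827 (1.31, SE 0.13; not called with a pseudocount of 5). USP18, which removes ISG15 and blocks the type I receptor, had 8.92, 12.3 and 10.8 FPKM in HCC827_Er, against 3.36, 3.59 and 3.51 FPKM in HCC827 (1.37, SE 0.13); it shares 28.8% of its 31-base words with USP41. HERC5, the main human ligase for ISG15, averaged 2.78 FPKM in HCC827_Er and 1.38 FPKM in HCC827 (0.65, SE 0.14), and HERC6 averaged 7.35 FPKM in HCC827_Er and 4.68 FPKM in HCC827 with overlapping lines. HERC3, a family member not known for a role with ISG15, lies beside them on chromosome 4 and was lower in all HCC827_Er libraries, at 5.05, 5.66 and 6.42 FPKM in HCC827_Er, against 9.34, 10.6 and 12.9 FPKM in HCC827. None of the 3 HERC genes was called, and under median-ratio rescaling HERC3 was called lower. ISG20, an RNA exonuclease, averaged 7.88 ± 2.15 FPKM in HCC827_Er and 4.45 ± 0.777 FPKM in HCC827 and was not called.

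The APOL genes were all called higher, beside 24.7% of all tested genes. APOL1, a serum protein that kills trypanosomes (chromosome 22, 36253010 to 36267530, plus strand), had 436, 434 and 424 FPKM in HCC827_Er, against 142, 147 and 150.5 FPKM in HCC827 (log2 difference 1.55, SE 0.04, adjusted p = 9.24e-09). APOL3 had 16.6, 20.6 and 17.4 FPKM in HCC827_Er, against 9.64, 5.96 and 4.96 FPKM in HCC827 (1.33, SE 0.20). APOL6 had 12.7, 14.1 and 14.4 FPKM in HCC827_Er, against 6.22, 6.04 and 6.73 FPKM in HCC827, and its log2 difference of 1.00 (SE 0.09) sat on the threshold. The APOL6 call was lost without HCC827_Er library 2 or 3, without HCC827 library 1 or 2, and with median-ratio or quantile rescaling, and a pseudocount of 5 ended the calls of APOL6 and APOL3.

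Of the singly named genes listed, 6 of 7 were tested and all 6 were called higher, beside 24.7% of all tested genes. With a pseudocount of 5 the calls of MX2, EPSTI1 and USP18 were lost. XAF1, which counters an inhibitor of apoptosis, had 19.2, 15.1 and 16.1 FPKM in HCC827_Er, against 1.32, 1.52 and 2.05 FPKM in HCC827 (2.76, SE 0.14); 38.3% of its exonic bases are overlapped on the other strand by the locus PRAL. MX2, a GTPase that blocks retroviruses, had 5.35, 3.65 and 4.60 FPKM in HCC827_Er and was near 0 in HCC827, at 0.03, 0.39 and 0.10 FPKM (2.24, SE 0.16). EPSTI1 averaged 1.79 ± 0.171 FPKM in HCC827_Er and 0.187 ± 0.117 FPKM in HCC827 (1.24, SE 0.11). CMPK2, a mitochondrial nucleotide kinase, was too low to test, at 0.25, 0.51 and 0.34 FPKM in HCC827_Er, against 0, 0.10 and 0.06 FPKM in HCC827. Of all called members MX2, EPSTI1, OAS2, OASL and STAT4 passed the minimum of 1 FPKM through HCC827_Er alone.

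Tested PARP and SAMD9 genes were higher by less than 2-fold on the log2(FPKM + 1) scale. PARP9, an ADP-ribosyltransferase family member of the interferon response, averaged 32.0 ± 2.32 FPKM in HCC827_Er and 16.2 ± 0.745 FPKM in HCC827 (0.94, SE 0.08), and PARP16 averaged 3.70 FPKM in HCC827_Er and 1.80 FPKM in HCC827 (0.74, SE 0.13). PARP6 and PARP11 were too low to test. SAMD9 and SAMD9L, neighbours on chromosome 7 that restrain poxviruses and cell growth, averaged 7.93 and 7.03 FPKM in HCC827_Er, against 3.64 and 3.71 FPKM in HCC827. None of these was called, and PARP9 and SAMD9 were called higher with sum rescaling. GBP5, a guanylate-binding protein strongly induced by interferon gamma, was near 0 in both lines and lower in HCC827_Er, at 0.28, 0.08 and 0.25 FPKM in HCC827_Er, against 0.41, 0.41 and 0.38 FPKM in HCC827.

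**Figure D3:**
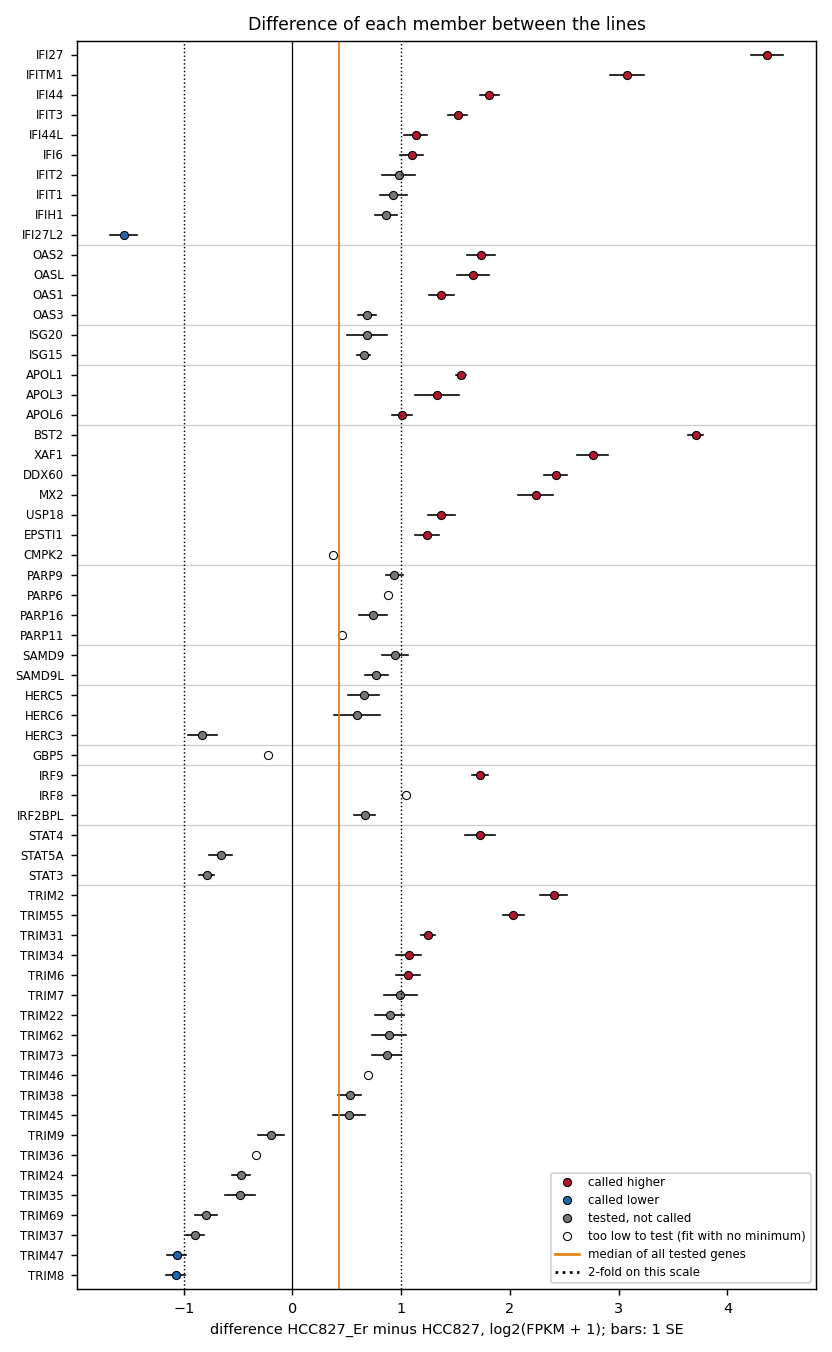
Difference of the members reported here between the lines, HCC827_Er minus HCC827 on the log2(FPKM + 1) scale, with bars of 1 SE, by family from IFI at the top to TRIM at the bottom; open circles are the 7 members too low to test, from the fit with no minimum. Dotted lines mark 2-fold and the orange line the median of all tested genes (0.43); members called higher lie past the upper dotted line in red and the 3 called lower past the lower in blue.

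The IRF name covers factors with different duties. IRF8, a factor of myeloid and B cells, was too low to test, at 1.09, 1.98 and 0.65 FPKM in HCC827_Er and 0, 0.05 and 0.12 FPKM in HCC827. IRF2BPL, which carries the name only as a relative of an IRF2-binding protein, averaged 15.3 FPKM in HCC827_Er and 9.30 FPKM in HCC827 and was not called. IRF9 has 48.4% of its exonic bases overlapped on the same strand by the GENCODE 29 gene AL136295.5, so its reads are uncertain in part.

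The TRIM family of ubiquitin ligases was split: 5 of 18 tested members were called higher and 2 lower, or 27.8% and 11.1%, beside 24.7% and 19.7% of all tested genes. TRIM2, a ligase best studied in neurons, had 14.5, 17.1 and 17.0 FPKM in HCC827_Er, against 2.21, 1.91 and 2.65 FPKM in HCC827 (2.40, SE 0.12). TRIM55, best known from muscle, had 30.5, 35.3 and 35.2 FPKM in HCC827_Er, against 6.75, 7.90 and 7.77 FPKM in HCC827 (2.03, SE 0.09). TRIM31, a ligase of the gut epithelium, had 47.4, 45.7 and 48.5 FPKM in HCC827_Er, against 20.5, 18.9 and 18.6 FPKM in HCC827 (1.24, SE 0.07; not called with median-ratio rescaling). The libraries of the lines were apart for all 3.

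Antiviral TRIM genes of chromosome 11 showed smaller differences than TRIM2, TRIM55 and TRIM31 on the log2(FPKM + 1) scale. Their ratios of mean FPKM were 2.42 for TRIM6, 2.48 for TRIM34 and 2.76 for TRIM22. These lay near the 2.44 of TRIM31 and below the 7.17 of TRIM2 and the 4.51 of TRIM55. TRIM6 had 7.50, 8.46 and 7.96 FPKM in HCC827_Er, against 2.99, 3.33 and 3.57 FPKM in HCC827 (1.06, SE 0.11), and TRIM34 had 7.70, 7.38 and 6.28 FPKM in HCC827_Er, against 3.10, 2.87 and 2.63 FPKM in HCC827 (1.07, SE 0.12). Both calls were lost with median-ratio and quantile rescaling and with a pseudocount of 5, and 82.0% of the 31-base words of TRIM34 and 27.2% of those of TRIM6 occur in the read-through gene TRIM6-TRIM34. Their neighbour TRIM22, a strongly interferon-inducible gene in many cells, averaged 2.59 FPKM in HCC827_Er and 0.937 FPKM in HCC827 and was not called (0.89, SE 0.14). TRIM38, a regulator of antiviral sensing, averaged 3.46 FPKM in HCC827_Er and 2.10 FPKM in HCC827.

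TRIM8, a positive regulator of STAT3 and NF-kB signalling, fell, with 25.8, 24.4 and 20.6 FPKM in HCC827_Er and 52.5, 50.2 and 49.3 FPKM in HCC827 (-1.08, SE 0.09). TRIM47 had 27.1, 25.0 and 22.2 FPKM in HCC827_Er, against 56.8, 50.8 and 51.0 FPKM in HCC827 (-1.07, SE 0.09). Both calls were lost with sum rescaling, with a pseudocount of 5 and without HCC827_Er library 3, and that of TRIM47 also with quantile normalization. Loci on the opposite strand, a different one for each gene, overlap 51.5% of the exonic bases of TRIM47 and 14.1% of those of TRIM8. Whether counting used strand is not given in the sources used here. TRIM37, TRIM69, TRIM35 and TRIM24 were lower in all HCC827_Er libraries, by less than 2-fold on the log2(FPKM + 1) scale. The widest of them on that scale was TRIM37, at 15.5 FPKM in HCC827_Er and 29.7 FPKM in HCC827. As a ratio of mean FPKM, HCC827 over HCC827_Er, TRIM69 stood at 2.02 and TRIM37 at 1.92. TRIM37 and TRIM69 were called lower with median-ratio rescaling. TRIM9 was the only tested member of the 56 whose adjusted p did not pass (0.132).

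Other interferon-stimulated genes outside these names were read from a list of 51, of which 18 were in the table and 17 tested. Of these 7 were called higher and 1 lower, against 24.7% and 19.7% of all tested genes, with a median log2 difference of 0.99, beside 0.43 over all tested genes. IDO1, which breaks down tryptophan, had 12.1, 13.8 and 14.9 FPKM in HCC827_Er, and 0.17, 0.20 and 0 FPKM in HCC827 (3.70, SE 0.13). IDO1 and CIITA, a gene of the list that was not called, stayed under 1 FPKM in every HCC827 library. Both were tested only through HCC827_Er and could only differ upward, in the count and in the median. SLFN13 had 13.8, 14.8 and 13.4 FPKM in HCC827_Er, against 2.03, 2.01 and 2.23 FPKM in HCC827 (2.28, SE 0.10). SLFN11, a relative that sensitises cells to DNA damage, was the gene called lower, with 1.14, 1.29 and 1.54 FPKM in HCC827_Er and 8.55, 7.42 and 8.66 FPKM in HCC827 (-1.99, SE 0.12). With median-ratio rescaling 3 of the 17 were called higher, close to the 17.1% of all tested genes, and with sum rescaling 13, against 34.6%.

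**Figure D4:**
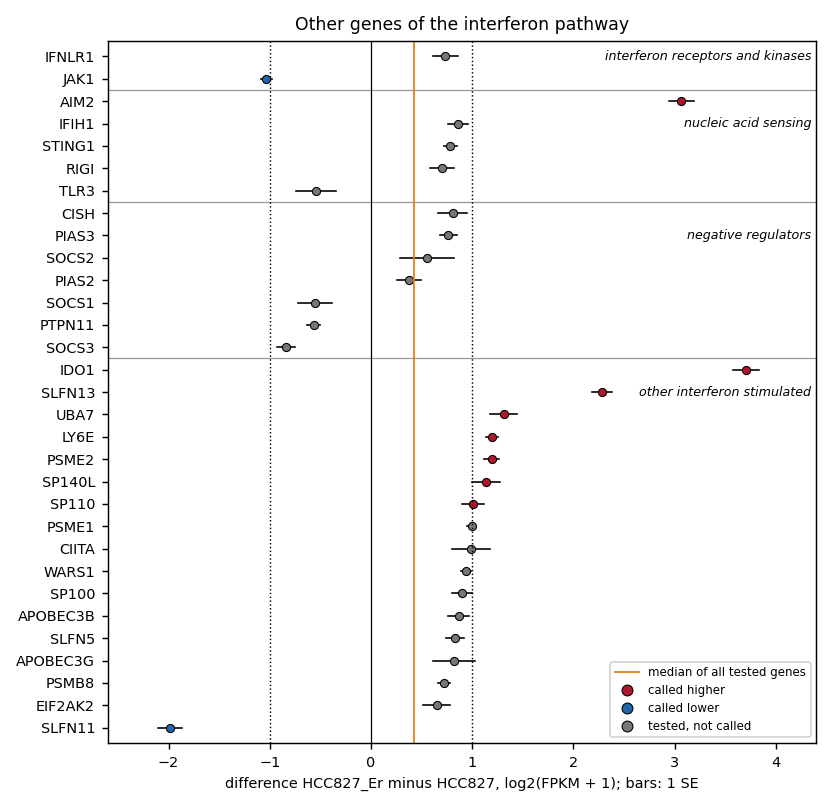
Differences of the tested genes of the other pathway lists, HCC827_Er minus HCC827 on the log2(FPKM + 1) scale with bars of 1 SE, by list; IFIH1 is also a member. AIM2, IDO1 and SLFN13 lie past 2 on the upper side, and JAK1 and SLFN11 are the genes called lower; the orange line is the median of all tested genes.

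Markers of leukocytes, which respond to and make interferons, were also read. Of 18 names 5 were in the table, 4 were tested and all 4, CSF1R, CORO1A, LAPTM5 and CD14, were called higher, beside 24.7% of all tested genes. Each of the 4 stayed under 1 FPKM in every HCC827 library and was tested only through its level in HCC827_Er, so their count had to run that way; ITGAM, too low to test, averaged 0.187 FPKM in HCC827_Er and 0.897 FPKM in HCC827. The 5 summed to between 17.1 and 22.9 FPKM in HCC827_Er and between 2.62 and 3.17 FPKM in HCC827, far below the epithelial sums. Of the 8 epithelial markers 6 were called higher, beside 24.7% of all tested genes; KRT8 was not called as deposited and was lower by over 2-fold once libraries were rescaled by median ratio. The defining leukocyte markers PTPRC, CD3E and MS4A1 were among the 18 names and were not found by symbol in the table used here. The part of such markers in the results above was not tested, and in bulk RNA fewer cells of a type and less RNA per cell cannot be told apart.

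How many members passed 2-fold varied with the processing. Median-ratio rescaling moved the median of all tested genes by -0.25 and left 20 members called higher and 7 lower, against 17.1% and 31.7% of all tested genes. Rescaling to equal sums moved it by 0.18 and gave 35 higher and 1 lower, against 34.6% and 15.0%. Quantile normalization moved it by -0.19 and gave 23 higher and 2 lower. Under quantile normalization the members' share called higher lay above that of all tested genes, and their share called lower lay below it. The median difference in that setting was 0.843 over the tested members, beside 0.239 over all tested genes. With a pseudocount of 5 the counts were 14 and 1, against 11.0% and 9.59% of all tested genes. That pseudocount ended the calls of OAS2, OASL, MX2, EPSTI1, USP18, STAT4, APOL3, APOL6, IFI44L, IFI6, TRIM6, TRIM34, TRIM8 and TRIM47. Sum rescaling added calls of IFIH1, IFIT1, IFIT2, PARP9, SAMD9, TRIM7, TRIM22, TRIM62 and TRIM73 as higher. As deposited the tested members' median difference was 0.96, beside 0.43 for all tested genes. With a fixed minimum difference, 13 members were called higher in each of the 17 settings in which they were tested, the main one included, among them APOL1, BST2, DDX60, IFI27, IFI44, IFIT3, IFITM1, IRF9, OAS1, TRIM2, TRIM55 and XAF1. IFI27L2 was the only member called lower in every such setting.

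**Figure D5:**
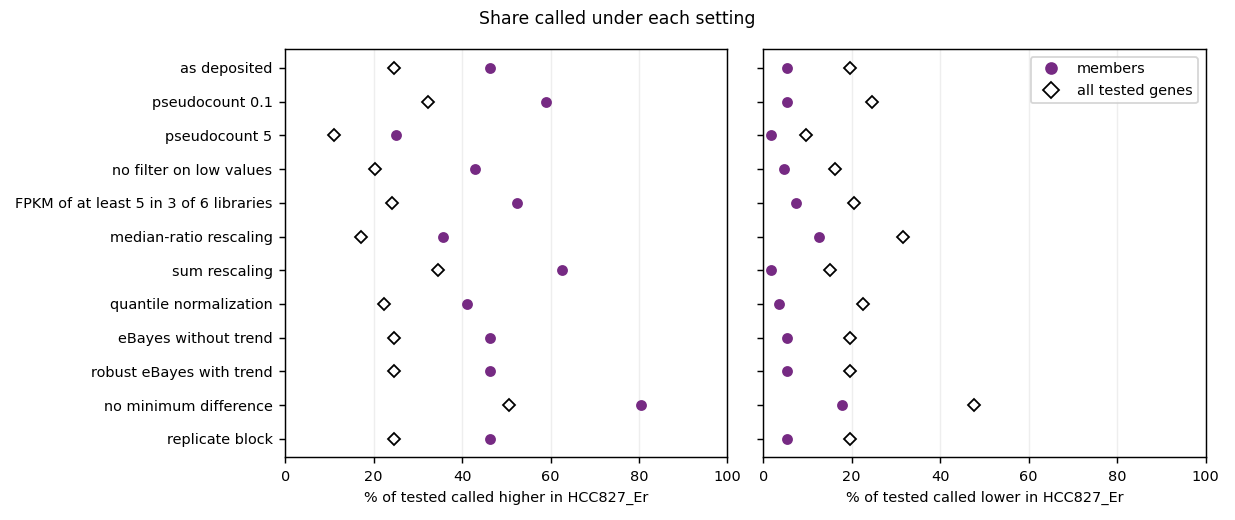
Share of the tested members (filled circles) and of all tested genes (open diamonds) called higher (left) and lower (right) in HCC827_Er, in percent, under each setting that keeps all 6 libraries. The members' share called higher lies above that of all genes and their share called lower below it in each setting shown.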

How the data were processed

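Total RNA of 3 HCC827_Er and 3 HCC827 libraries was sequenced after Illumina TruSeq RNA library preparation, per the labels' protocols. The authors deposited FPKM values per gene and library in a single table. fastp, HISAT2 and StringTie are named in the submitters' processing notes, which list GRCh38.p14 and hg19 without roles; versions, annotation and strand setting: not given in the sources used here. The table holds no counts and its values have 2 decimals, so depth and counting error are unknown; listed FPKM summed to between 184633 and 224211 per library. Between 286 and 382 listed genes were at 0 in a library.

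Symbols were matched by identifier for 6636 of 6641 genes, and types and positions came from GENCODE 29 (GRCh38), which gave 5241 genes as protein-coding; 5 further name matches were not so annotated. FPKM was transformed to log2(FPKM + 1) and fitted with limma 3.58.1 in R 4.3.3 (cell line as the only term, eBayes with trend), with Benjamini-Hochberg adjustment over 5276 tested genes. Exact tests of 3 against 3 cannot go below p = 0.1 and were not used. The steps were tested on simulated data. No libraries of a line were copies: at 10 FPKM or more they shared at most 4 identical values. The members, gene lists and calls were chosen with earlier results of these data known. Values in every library are given for called members, at most 5 per direction and family; from each other pathway list up to 4 called genes with the largest differences are named, or 2 where none was called. Library values of IFIH1, ISG15, HERC3, IRF8, CMPK2 and GBP5, and the names IFNLR1, RIGI, STING1, TLR3 and the leukocyte genes, were added after their values were seen. Alternatives were other pseudocounts (0.1, 5), minimums (none, 5 FPKM), rescalings, eBayes settings, a replicate block and leaving out each library. Motifs were searched by their letters on both strands of RefSeq promoters. Values of 1 member are not reported here, while counts and sums over members include it.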

Additional observations from a re-analysis of the deposited data

How the results depend on the processing

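No member's called difference changed sign in any setting run. Against 26 members called higher and 3 lower, a pseudocount of 5 gave 14 and 1, median-ratio rescaling 20 and 7, sum rescaling 35 and 1, and an adjusted p alone 45 and 10. Leaving out each library in turn gave 25 to 30 higher and 1 to 3 lower; without HCC827_Er library 3, TRIM8 and TRIM47 were lost. Of all tested genes, 1304 were called higher and 1041 lower; a pseudocount of 5 gave 579 and 506, raising the minimum to 5 FPKM gave 867 higher, median-ratio rescaling 1671 lower, and an adjusted p alone 2672 and 2515.

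Receptors and kinases had 0 called higher and 1 lower (JAK1); a pseudocount of 0.1 or an adjusted p alone gave 1 higher, sum rescaling and quantile normalization 0 lower, and leaving out single libraries 0 to 1 lower. Sensors had 1 called higher, with 3 under sum rescaling, and 4 higher and 1 lower by adjusted p alone. Negative regulators had none called, with 1 higher under a pseudocount of 0.1 or sum rescaling, 1 lower under median-ratio rescaling, and 3 higher and 3 lower by adjusted p alone. Other interferon-stimulated genes had 7 called higher, with 4 under a pseudocount of 5, 3 under median-ratio rescaling, 13 under sum rescaling and 16 by adjusted p alone. Leukocyte markers had 4 called higher, with 1 under a pseudocount of 5 or a minimum of 5 FPKM. Epithelial markers had none called lower, with 1 under median-ratio rescaling or by adjusted p alone. These counts stand beside the shares of all tested genes called higher and lower, 24.7% and 19.7% as deposited. The shares were 34.6% and 15.0% with sum rescaling and 17.1% and 31.7% with median-ratio rescaling. They were 11.0% and 9.59% with a pseudocount of 5 and 50.6% and 47.7% by adjusted p alone. Fewer genes are tested at the higher minimum; for the rescalings the cause was not tested.

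Replicate numbers did not pair the libraries: deviations of same-numbered libraries correlated at r = 0.106, -0.022 and 0.049 across genes, which are not independent replicates. A replicate block left 26 members higher and 3 lower and changed no member's call. The pseudocount of 1 understates the differences of low genes such as MX2, EPSTI1 and STAT4, and without counts the depth behind them is unknown.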

Other observations

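Name matches that are not annotated as protein-coding in GENCODE 29 were not counted as members. TRIM8-DT, the divergent noncoding neighbour of TRIM8, had 1.32, 0.56 and 0.55 FPKM in HCC827_Er, against 4.15, 2.09 and 2.42 FPKM in HCC827, and was called lower (log2 difference -1.09, SE 0.23). Its transcripts overlap those of TRIM8 on the other strand. TRIM52-AS1 averaged 6.54 ± 0.870 FPKM in HCC827_Er and 9.69 ± 3.07 FPKM in HCC827 (SD, n = 3 each) and was not called. HERC2P3 and HERC2P9 averaged 5.17 and 10.5 FPKM in HCC827_Er, against 8.55 and 13.1 FPKM in HCC827, and neither was called. A second identifier with the symbol HERC3 averaged 0.670 FPKM in HCC827_Er and 1.09 FPKM in HCC827 and was too low to test.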
